A study of Homo sapiens with 14 samples.

Results

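Multiple myeloma is a cancer of plasma cells, and its cell lines carry different chromosome translocations that place an oncogene next to the immunoglobulin heavy chain locus. The 6 libraries compared here are the scramble control libraries of 2 such lines: 2 of MM1.S, set against 4 of H929, out of 14 libraries in a study that depleted the nucleic acid sensor ZBP1 in both lines. They were chosen by their labels alone, as libraries whose cells received a lentiviral scramble control instead of an anti-ZBP1 hairpin. The H929 libraries form 2 groups of 2, a scramble group for each hairpin (called scramble for shRNA1 and scramble for shRNA2), whereas MM1.S has 1 scramble group. All cells were cultured in RPMI medium with fetal bovine serum, and poly(A) RNA was sequenced.

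MM1.S is known to carry t(14;16), which drives MAF, a bZIP transcription factor. H929 (NCI-H929) is known to carry t(4;14), which drives NSD2, a histone H3 lysine 36 methyltransferase, and, from the other derivative chromosome, the receptor tyrosine kinase FGFR3. Both classes of myeloma raise a D-type cyclin. Each line is the culture of 1 patient's tumour, so what differs between them is a difference between 2 lines and not between 2 classes of patients.

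The MM1.S libraries held 27262346 and 28419331 gene reads, and those of H929 between 16884537 and 17437401. Reads of mitochondrial genes made up 9.87% and 10.2% of the MM1.S libraries, against 6.63% to 7.22% of the H929 libraries. Levels are given as CPM, read counts scaled for library depth in the usual way, on a scale shared by the 6 libraries, and for H929 the 2 libraries of the scramble for shRNA1 always stand before the 2 of the scramble for shRNA2. A difference is the fitted log2 difference, MM1.S minus H929, on the log2(CPM + 0.5) scale with its standard error, tested with limma, and a gene is called at a Benjamini-Hochberg adjusted p under 0.05. The 2 lines came as separate deposited tables, so the line and the table cannot be told apart. Nothing in the labels says that libraries of a group are separate cultures, so a p-value here speaks of library-to-library spread, possibly technical spread alone. In such bulk libraries, fewer expressing cells and less RNA per cell cannot be told apart.

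Of 18612 genes tested, 5888 were higher in MM1.S and 6008 were lower, which is 31.6% and 32.3% of the genes, or 63.9% together. The difference was 2-fold or more for 3064 genes that were higher in MM1.S (16.5%) and for 3676 that were lower (19.8%). The median difference over all genes was 0.01, so the shared scale is centred. The libraries of the lines did not overlap for 13725 genes (73.7%), with 36.9% of genes above and 36.9% below in MM1.S. These shares are the background against which each count below is read. The 2 H929 scramble groups also differed from each other, in 2999 genes (16.1%), of which 702 differed by 2-fold or more. Because both enter the H929 side as 1 group, this spread is part of the error of every difference below. The fit still counts the 4 H929 libraries as independent. For genes that differ between the 2 H929 groups, the standard errors may therefore be too small.

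MAF, the target of t(14;16), lies at chr16:79585843-79600714 on the minus strand of GRCh38. It reached 1479 and 1526 CPM in MM1.S, against 135, 154, 171 and 161 CPM in H929, and the libraries of the lines were far apart (3.27 ± 0.13, adjusted p = 4.62e-07 with limma). NSD2, at chr4:1871424-1982207 on the plus strand, ran the other way, with 339 and 353 CPM in MM1.S, against 996, 1027, 923 and 966 CPM in H929 (-1.50 ± 0.12, adjusted p = 2.01e-05). FGFR3, at chr4:1793293-1808872 on the plus strand, was close to absent from MM1.S, with 0.415 and 0.758 CPM in MM1.S, against 1082, 1114, 445 and 499 CPM in H929 (-9.39 ± 0.40, adjusted p = 6.62e-07). The 3 defining genes thus followed the labels of the lines, and within H929 the FGFR3 level of the scramble for shRNA1 libraries was above that of the scramble for shRNA2 libraries.

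D-type cyclins bind CDK4 and CDK6 and start the cell's passage out of G1. CCND2 was far higher in MM1.S, with 946 and 916 CPM in MM1.S, against 2.12, 1.6, 2.05 and 2.03 CPM in H929 (8.57 ± 0.14, adjusted p = 1.25e-08), a 477-fold higher mean level. CCND1 was lower in MM1.S, with 19.9 and 27 CPM in MM1.S, against 78.2, 69.2, 84.7 and 86.6 CPM in H929 (-1.75 ± 0.16, adjusted p = 4.12e-05). CCND3 had 44.8 and 51 CPM in MM1.S, against 68.2, 59.6, 74.7 and 79 CPM in H929 (-0.55 ± 0.14, adjusted p = 0.0108), a call that was lost without replicate 1 of MM1.S (adjusted p = 0.0917 with limma). Per kilobase of exon, CCND2 averaged 130.1 RPKM in MM1.S, CCND3 8.25 and CCND1 4.86. In H929 the same scale gave 16.5 RPKM for CCND1, 12.1 for CCND3 and 0.273 for CCND2. The most abundant D cyclin per length was thus CCND2 in MM1.S and CCND1 in H929.

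Genes that earlier myeloma work linked to MAF were all higher in MM1.S, 6 of 6, CCND2 among them, with a median difference of 2.05, against 31.6% of all genes. ITGB7, an integrin chain through which myeloma cells hold on to stroma, had 4860.2 and 6228 CPM in MM1.S, against 1772, 2054, 2528 and 2410.1 CPM in H929 (1.34 ± 0.21, adjusted p = 7.53e-04). NUAK1, an AMPK-related kinase, had 139 and 120.0 CPM in MM1.S, against 16.6, 19.9, 21.4 and 20.6 CPM in H929 (2.69 ± 0.14, adjusted p = 2.17e-06). CX3CR1, the fractalkine receptor, was near absent from H929, with 28 and 19.6 CPM in MM1.S, against 0, 0.111, 0.117 and 0.0598 CPM in H929 (5.39 ± 0.21, adjusted p = 4.38e-07). The MM1.S libraries stood above every H929 library for each of these. CCR1, a chemokine receptor of osteoclast precursors and myeloma cells, differed by 1.14 ± 0.16, and DEPTOR, an inhibitor of mTOR, by 1.42 ± 0.16. Both differed less than NUAK1 and CX3CR1. DEPTOR had 186 and 179 CPM in MM1.S, against 70.4, 54.1, 75 and 75.6 CPM in H929.

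**Figure D1:**
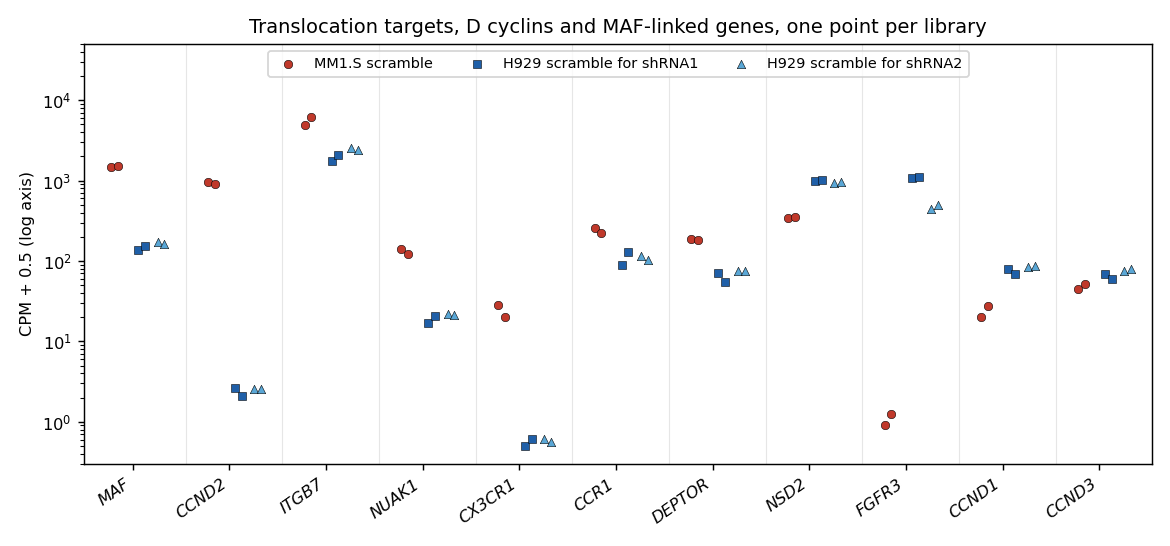
CPM plus 0.5 (log axis) of the translocation targets MAF, NSD2 and FGFR3, of the D cyclins and of the MAF-linked genes in each scramble library, with the 2 MM1.S libraries left of the 4 H929 libraries. MAF and the 6 MAF-linked genes sit higher in both MM1.S libraries, and NSD2, FGFR3, CCND1 and CCND3 sit higher in all 4 H929 libraries.

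Around NSD2 on 4p16.3, 31 other protein-coding genes start within 1 Mb, and 29 of them were tested. Of these, 10 were higher in MM1.S, 12 were lower and 7 were not called, with a median of 0.06. Over all genes 31.6% were higher and 32.3% lower, so calls in both directions do not set this region apart. Of the immediate neighbours of NSD2, LETM1, a mitochondrial ion transporter gene, was higher in MM1.S, with 145 and 159 CPM in MM1.S, against 65.3, 60.8, 76.8 and 84.8 CPM in H929 (1.08 ± 0.16, adjusted p = 4.89e-04), and NELFA, a subunit of the negative elongation factor, was not called (0.08 ± 0.17). TACC3, a spindle protein gene, had 217 and 228 CPM in MM1.S, against 50.6, 55.2, 121 and 135 CPM in H929 (1.43 ± 0.40, adjusted p = 0.0148), and its call was lost without replicate 1 and without replicate 2 of MM1.S (adjusted p = 0.107 and 0.114 with limma).

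A separate cluster farther toward the telomere was silent in MM1.S. DGKQ, SLC26A1, IDUA and FGFRL1, neighbours that start 861 to 885 kb from NSD2, were each under 0.5 CPM in both MM1.S libraries. IDUA, the lysosomal alpha-L-iduronidase gene at chr4:986997-1004506, had 0.0377 and 0 CPM in MM1.S, against 100.4, 89.3, 62.3 and 63.6 CPM in H929 (-7.23 ± 0.22, adjusted p = 1.67e-07). FGFRL1, a decoy-like relative of the FGF receptors without a kinase domain, had 0.0377 and 0.0361 CPM in MM1.S, against 20.4, 21, 22.8 and 20.5 CPM in H929 (-5.33 ± 0.15, adjusted p = 1.28e-07). SLC26A1 lies across from IDUA on the opposite strand and overlaps DGKQ, and the labels do not say whether reads keep their strand, so those 3 genes may share reads. The gene just beyond the cluster, TMEM175, a lysosomal potassium channel gene, was lower but not silent, with 24.7 and 37.4 CPM in MM1.S, against 99.3, 97.7, 70.3 and 75.9 CPM in H929. By contrast, only 1 other protein-coding gene, DYNLRB2, starts within 1 Mb of MAF, and it was too low to test in either line.

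**Figure D2:**
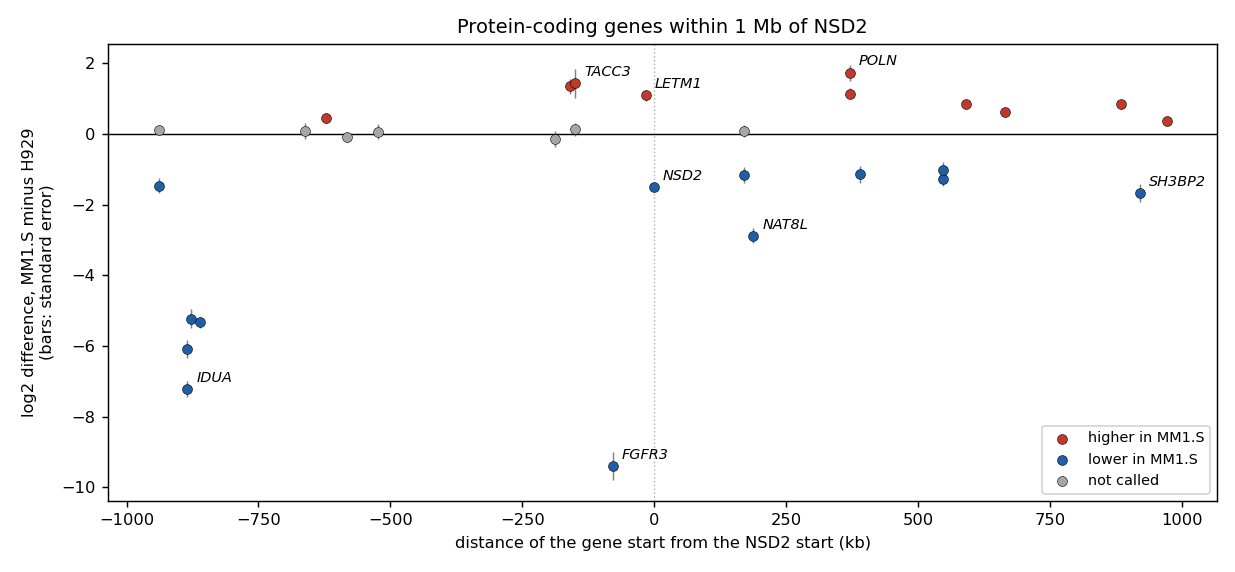
Fitted log2 difference, MM1.S minus H929, of the tested protein-coding genes within 1 Mb of NSD2 against the distance of their start from that of NSD2 in kb, with standard errors as bars and calls at adjusted p under 0.05 in colour. FGFR3 at -9.39 and the DGKQ to FGFRL1 cluster at -5.23 to -7.23 lie lowest, and the other genes lie between -2.88 and 1.73.

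Other FGF receptors did not share the size of the FGFR3 difference. Of 10 tested genes of FGF receptors and their adaptors, 2 were higher and 6 lower in MM1.S, with a median of -0.62, and 1 was higher without replicate 1 of MM1.S. FGFR4 had 2.79 and 3.61 CPM in MM1.S, against 14.6, 14.4, 11.7 and 12.1 CPM in H929 (-1.89 ± 0.18, adjusted p = 5.08e-05), whereas FGFR2 had 8.86 and 7.47 CPM in MM1.S, against 1.62, 1.82, 2.57 and 1.85 CPM in H929 (1.82 ± 0.21, adjusted p = 1.48e-04). FRS2, the docking adaptor of FGF receptors, differed by 0.86 ± 0.19, a call lost without replicate 1 of MM1.S (adjusted p = 0.0615 with limma).

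Of 28 RAS and MAPK genes and genes that ERK signalling induces, 15 were lower and 8 higher in MM1.S, with a median of -0.67. Over all genes 32.3% were lower and 31.6% higher, so only the lower count stood above its share. The lower genes included transcriptional targets of ERK. EGR1, an immediate early transcription factor gene, had 0.603 and 0.902 CPM in MM1.S, against 22.5, 41.9, 23.4 and 18.4 CPM in H929 (-4.37 ± 0.31, adjusted p = 1.02e-05). ETV4, an ETS factor gene, had 0.678 and 0.361 CPM in MM1.S, against 20.7, 24.4, 30.6 and 33.3 CPM in H929 (-4.76 ± 0.24, adjusted p = 1.40e-06). SPRY4, a feedback inhibitor of the pathway, had 0.226 and 0.289 CPM in MM1.S, against 8.77, 10.9, 10.3 and 10.6 CPM in H929 (-3.81 ± 0.18, adjusted p = 9.72e-07). All 3 were near absent from MM1.S and present in every H929 library. Against this direction, DUSP4, an ERK phosphatase, had 243 and 233 CPM in MM1.S, against 30.8, 32.1, 34.3 and 34.4 CPM in H929 (2.84 ± 0.11, adjusted p = 4.32e-07), and SPRY1 differed by 0.88 ± 0.21, with its call lost without replicate 1 of MM1.S (adjusted p = 0.0745 with limma). NRAS, the RAS gene that is mutated in H929, had 134 and 108 CPM in MM1.S, against 165, 184, 260.4 and 248 CPM in H929 (-0.80 ± 0.21, adjusted p = 0.0104), and without replicate 2 of MM1.S it was not called (adjusted p = 0.114 with limma).

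Of 31 histone methyltransferase, demethylase and DNA methylation genes, 15 were higher in MM1.S and 7 lower, with a median of 0.39. The shares over all genes were 31.6% and 32.3%. Among the higher ones were components of the Polycomb repressive complex that writes H3 lysine 27 methylation: EZH2, the catalytic subunit, had 138 and 144 CPM in MM1.S, against 31.6, 34.1, 57.2 and 52.2 CPM in H929 (1.72 ± 0.25, adjusted p = 5.02e-04), and SUZ12 had 251 and 196 CPM in MM1.S, against 78.2, 76.9, 109 and 107 CPM in H929 (1.28 ± 0.19, adjusted p = 6.38e-04). TET1, a methylcytosine dioxygenase gene, had 31.5 and 26 CPM in MM1.S, against 9.83, 10.3, 9.3 and 7.24 CPM in H929 (1.60 ± 0.18, adjusted p = 1.38e-04). Among the lower ones, KDM5B, an H3 lysine 4 demethylase gene, showed the widest gap, with 6.97 and 7.94 CPM in MM1.S, against 172, 179, 166 and 155 CPM in H929 (-4.41 ± 0.12, adjusted p = 9.08e-08). The gap was smaller between the hairpin libraries, scaled over all 14 libraries. There KDM5B had 54.8 to 66.6 CPM in MM1.S and 169 to 209 CPM in H929. KDM6B, which removes H3 lysine 27 methylation, had 9.08 and 19 CPM in MM1.S, against 97.6, 93.5, 71.4 and 76.2 CPM in H929 (-2.63 ± 0.27, adjusted p = 8.40e-05).

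Among 29 tested genes of the plasma cell list, calls went in both directions, and some defining members were not called. IRF4, the transcription factor on which myeloma cells depend, had 933 and 1089 CPM in MM1.S, against 983, 900.1, 1149.8 and 1229 CPM in H929 and was not called (-0.07 ± 0.17, adjusted p = 0.739). SDC1, the surface marker CD138, had 922 and 1112 CPM in MM1.S, against 812, 809, 778 and 899 CPM in H929 and was not called (0.30 ± 0.14, adjusted p = 0.0934). JCHAIN, the joining chain of polymeric immunoglobulin, was not called either (-0.12 ± 0.22, adjusted p = 0.64). Of the list, 8 were higher and 11 lower in MM1.S, with a median of -0.17, and the count of lower genes was 7 without replicate 1 of MM1.S. PRDM1, the plasma cell master regulator, differed by 0.32 ± 0.11 and lost its call whichever of the 6 libraries was left out (adjusted p from 0.0548 to 0.0775 with limma). XBP1, the secretory stress regulator, differed by -0.55 ± 0.15 and lost its call without replicate 1 and without replicate 2 of MM1.S (adjusted p = 0.0504 and 0.0921).

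Some genes of the plasma cell list were expressed by 1 line and nearly not by the other. TNFRSF13B, the receptor TACI for the survival factors BAFF and APRIL, had 152 and 205 CPM in MM1.S, against 0.112, 0.442, 0.176 and 0.0598 CPM in H929 (8.02 ± 0.25, adjusted p = 1.78e-07). FCRL5, an Fc receptor-like protein, had 2.83 and 3.03 CPM in MM1.S, against 147, 161, 71.2 and 67.8 CPM in H929 (-4.92 ± 0.37, adjusted p = 1.40e-05), and CD200, an immune checkpoint ligand, had 0.49 and 0.505 CPM in MM1.S, against 14.8, 13.4, 18.1 and 19.6 CPM in H929 (-4.07 ± 0.20, adjusted p = 1.29e-06). ELL2, the elongation factor that directs secretory-form immunoglobulin mRNA, was lower in MM1.S, with 73.7 and 66.8 CPM in MM1.S, against 343, 357, 435 and 416 CPM in H929 (-2.45 ± 0.14, adjusted p = 2.85e-06). BMP6, a growth factor of the TGF-beta family, had 75.7 and 85.4 CPM in MM1.S, against 25.9, 25.9, 27.6 and 27.1 CPM in H929 (1.58 ± 0.12, adjusted p = 1.24e-05).

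Of the genes that mark the B cell stage before plasma cells, MS4A1 (CD20) was under the test limit, and PAX5 had 0.264 and 0.325 CPM in MM1.S, against 0.559, 1.11, 1.05 and 1.08 CPM in H929. Of the 24 tested B cell and germinal centre genes, 9 were higher in MM1.S and 11 were lower, with a median of -0.51. Without replicate 1 of MM1.S, 4 were lower. IRF8, a B cell and myeloid transcription factor, had 13.9 and 14.1 CPM in MM1.S, against 0.335, 0.221, 0.0585 and 0.0598 CPM in H929 (4.46 ± 0.22, adjusted p = 1.51e-06). CR2, the complement receptor CD21, had 31.4 and 32 CPM in MM1.S, against 1.29, 0.553, 1.23 and 1.32 CPM in H929 (4.37 ± 0.26, adjusted p = 3.51e-06), and STAP1, a B cell receptor adaptor, had 12 and 8.91 CPM in MM1.S, against 0.112, 0.332, 0 and 0 CPM in H929 (4.18 ± 0.26, adjusted p = 4.90e-06). ID3, an inhibitor of E proteins, was the lower gene with the widest gap, with 7.39 and 7.8 CPM in MM1.S, against 84, 115, 55.9 and 64.9 CPM in H929 (-3.26 ± 0.26, adjusted p = 2.10e-05). BTK, a kinase downstream of the B cell receptor, had 8.52 and 5.99 CPM in MM1.S, against 22.7, 24.3, 25.9 and 25.2 CPM in H929 (-1.71 ± 0.17, adjusted p = 5.93e-05). BLK, a Src family kinase, differed by -0.93 ± 0.20, a call lost without replicate 1 of MM1.S (adjusted p = 0.0571 with limma).

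Summed levels of markers of other cell types differed by type and by line. The 9 T cell markers summed to 4.94 and 7.04 CPM in MM1.S, against 11, 12.8, 9.3 and 8.67 CPM in H929, and the 8 monocyte and macrophage markers to 1.51 and 1.73 CPM in MM1.S, against 7.1, 8.79, 3.57 and 2.63 CPM in H929. Of the T cell list, CD8B was at 0 in all 6 libraries and CD3D had a read in only 1 of them, and CD3E made up most of the sum, with 2.75 and 3.72 CPM in MM1.S, against 9.05, 10.2, 7.66 and 7.06 CPM in H929. Of 6 NK cell, 6 erythroid, 7 stromal, 6 epithelial and 6 endothelial markers, those above 5 CPM in any library were KRT18, a keratin gene at 0.113 and 0.0722 CPM in MM1.S, against 11.3, 12.9, 11.7 and 11.5 CPM in H929, PECAM1, which plasma cells also express, and the globin genes HBB and HBD. HBD had 21.6 and 19.1 CPM in MM1.S, against 5.42, 5.47, 6.61 and 4.85 CPM in H929, and HBA2 was at 0 in all 6 libraries. The 6 erythroid markers summed to 28.7 and 26.9 CPM in MM1.S, against 5.7, 6.3, 7.55 and 5.2 CPM in H929, and the 6 endothelial markers, most of it PECAM1, to 34.3 and 30.8 CPM in MM1.S, against 17.3, 14, 19.4 and 20 CPM in H929. The part of these cell types in the results was not tested.

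The immunoglobulin genes separated the lines by light chain. In MM1.S the lambda variable gene IGLV2-14 averaged 3706 CPM (3478 to 3934), or 90.6% of its lambda variable reads. In H929 the kappa variable gene IGKV3-15 averaged 2239.6 CPM (2013 to 2366), or 88.4% of its kappa variable reads. The kappa constant gene IGKC had 0 and 0.0722 CPM in MM1.S, against 6183, 6231, 5277 and 6504 CPM in H929 (-13.46 ± 0.13, adjusted p = 8.88e-10). MM1.S is known as a lambda line and H929 as a kappa line. The lambda constant genes are near-identical copies, and reads on IGLC2, at 7.01 and 9.82 CPM in MM1.S, against 5.2, 6.91, 2.11 and 2.51 CPM in H929, and on IGLC3 are uncertain; their calls changed without replicate 2 of the H929 scramble for shRNA1 (adjusted p = 0.0598 with it and 0.0124 without it for IGLC2, and 0.112 and 0.00915 for IGLC3). IGLL5, which shares its lambda joining and constant exons with that locus, had 689 and 667 CPM in MM1.S, against 206, 292, 128 and 151 CPM in H929 (1.87 ± 0.30, adjusted p = 8.41e-04).

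The heavy chain constant genes differed as well. IGHG1 had 321 and 397 CPM in MM1.S, against 0.168, 0, 0.0585 and 0 CPM in H929 (9.34 ± 0.20, adjusted p = 3.61e-08). IGHA1 had 0.415 and 0.83 CPM in MM1.S, against 86.6, 139.7, 26.7 and 28 CPM in H929 (-5.65 ± 0.65, adjusted p = 1.51e-04), and IGHE had 0.0377 and 0.0361 CPM in MM1.S, against 202, 322, 85.6 and 104 CPM in H929 (-8.18 ± 0.48, adjusted p = 3.49e-06). In H929 both were higher in the scramble for shRNA1 libraries than in the scramble for shRNA2 libraries. IGHA2, a near copy of IGHA1, differed by -3.21 ± 0.96, and its call was lost without replicate 1 and without replicate 2 of MM1.S (adjusted p = 0.145 and 0.114 with limma). Immunoglobulin genes took 0.408% and 0.466% of reads in MM1.S, against 0.769% to 0.981% in H929. These shares are not on equal terms. In MM1.S the lambda constant genes, whose reads are uncertain, averaged 10.7 CPM in total, beside 4089 CPM of lambda variable genes. In H929 IGKC averaged 6049 CPM, beside 2533 CPM of kappa variable genes. The shares therefore do not say which line holds more immunoglobulin RNA.

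MHC class II molecules present peptides of endocytosed proteins to CD4+ T cells. Their genes are switched on together by the coactivator CIITA, which is normally shut off when B cells become plasma cells, and their promoters share a W, X and Y box enhancer. In MM1.S 10 of the 12 tested genes of the class II list were higher and 0 were lower, against 31.6% higher among all genes, with a median of 3.58. CIITA had 66.2 and 83.4 CPM in MM1.S, against 5.59, 3.71, 3.86 and 5.8 CPM in H929 (3.86 ± 0.22, adjusted p = 3.12e-06). CD74, the invariant chain that class II molecules need for assembly, had 1149 and 1393 CPM in MM1.S, against 3.97, 1.71, 1.99 and 1.68 CPM in H929 (8.87 ± 0.29, adjusted p = 2.11e-07). HLA-DRA had 299.7 and 301 CPM in MM1.S, against 7.49, 5.31, 5.56 and 4.07 CPM in H929 (5.65 ± 0.21, adjusted p = 3.50e-07), and HLA-DPB1 had 23.6 and 29.6 CPM in MM1.S, against 1.17, 1.05, 0.644 and 0.538 CPM in H929 (4.34 ± 0.25, adjusted p = 3.14e-06). CD74, HLA-DRA and HLA-DPB1 were named by a rule that asks for no overlap of the lines, so their lack of overlap is not a result. The summed level of the list was 1700.3 and 1989.8 CPM in MM1.S, against 50.6, 43.7, 29.7 and 30.9 CPM in H929. The exceptions were the DQ genes: HLA-DQB1 had 1.96 and 2.74 CPM in MM1.S, against 5.7, 5.86, 2.75 and 2.45 CPM in H929 and HLA-DQA1 had 1.21 and 1.52 CPM in MM1.S, against 1.56, 0.83, 0.468 and 0.598 CPM in H929, and neither was called (-0.64 ± 0.36, adjusted p = 0.152 and 0.50 ± 0.31, adjusted p = 0.178). Class II genes are highly polymorphic, and whether the alleles of a line match the reference well enough to be counted was not tested.

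Promoter windows of RefSeq (GRCh38.p14), from 250 bases before to 50 bases after the start of a gene, were found for 11 of the 13 class II list genes and searched on both strands for the Y box spelled CTGATTGG. Of these, 4 genes held it, as did 3.97% of 35116 promoter windows. They are shown for HLA-DRB1 and HLA-DMA, which were higher in MM1.S, and for HLA-DQB1, which was not, with the Y box in capitals.
HLA-DRB1, chr6:32589799-32590098, minus strand: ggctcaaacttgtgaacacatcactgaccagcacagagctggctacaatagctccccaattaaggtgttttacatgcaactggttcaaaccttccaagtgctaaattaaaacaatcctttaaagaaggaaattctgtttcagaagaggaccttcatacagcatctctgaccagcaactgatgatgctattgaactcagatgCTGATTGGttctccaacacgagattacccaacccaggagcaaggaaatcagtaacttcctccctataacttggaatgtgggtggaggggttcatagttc
HLA-DMA, chr6:32953048-32953347, minus strand: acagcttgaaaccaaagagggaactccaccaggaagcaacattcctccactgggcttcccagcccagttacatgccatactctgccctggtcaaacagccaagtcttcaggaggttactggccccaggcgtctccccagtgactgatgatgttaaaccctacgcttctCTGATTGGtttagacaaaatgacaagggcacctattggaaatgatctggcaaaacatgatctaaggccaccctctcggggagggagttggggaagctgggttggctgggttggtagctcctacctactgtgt
HLA-DQB1, chr6:32666608-32666907, minus strand: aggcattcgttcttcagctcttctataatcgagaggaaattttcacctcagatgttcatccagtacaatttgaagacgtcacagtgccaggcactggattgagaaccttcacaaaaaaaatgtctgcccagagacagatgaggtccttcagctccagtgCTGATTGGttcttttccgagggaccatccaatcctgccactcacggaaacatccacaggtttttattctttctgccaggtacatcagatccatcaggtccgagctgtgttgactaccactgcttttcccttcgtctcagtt
The box began 49 bases before the start in HLA-DRB1, 82 in HLA-DMA and 91 in HLA-DQB1, on the strand of the gene each time. HLA-DRB1 had 32.6 and 44.6 CPM in MM1.S, against 2.12, 1.55, 1.17 and 1.5 CPM in H929 (4.23 ± 0.23, adjusted p = 2.45e-06). HLA-DMA, which helps load peptides, had 27.7 and 29.9 CPM in MM1.S, against 8.88, 9.35, 4.27 and 5.14 CPM in H929 (2.05 ± 0.31, adjusted p = 6.51e-04). The window of HLA-DQB1 thus held the same 8 letters as those of genes that were higher in MM1.S. Windows without this spelling included those of CD74 and HLA-DPB1, which says only that these letters are not in them.

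MHC class I genes, which present peptides from inside the cell to CD8+ T cells, differed less. Of 18 tested, 2 were higher and 6 lower in MM1.S, with a median of -0.27, and 3 were lower and 1 higher without replicate 1, and likewise without replicate 2, of MM1.S. The higher count was also 1 without either library of the H929 scramble for shRNA2. HLA-C had 358 and 456 CPM in MM1.S, against 1238, 1336, 911 and 942 CPM in H929 (-1.43 ± 0.20, adjusted p = 4.56e-04), and NLRC5, the class I coactivator, had 17.8 and 17.8 CPM in MM1.S, against 75.5, 81.6, 51.4 and 44.2 CPM in H929 (-1.75 ± 0.25, adjusted p = 4.66e-04). TAP1, a peptide transporter subunit, differed by -0.98 ± 0.21, a call lost without replicate 1 of MM1.S (adjusted p = 0.0605 with limma). HLA-B was not called.

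Type I interferon-stimulated genes were lower in MM1.S. Of 40 tested, 27 were lower and 4 higher, against 32.3% and 31.6% of all genes, with a median of -1.90. Without replicate 1 of MM1.S, 18 were lower and 1 higher, and without replicate 2, 20 were lower and 2 higher. ISG15, a ubiquitin-like modifier, had 2.86 and 3.54 CPM in MM1.S, against 217, 304, 121 and 95.8 CPM in H929 (-5.50 ± 0.42, adjusted p = 1.55e-05). IFI27 had 0.452 and 0.83 CPM in MM1.S, against 234, 262, 44.7 and 31.6 CPM in H929 (-6.43 ± 0.85, adjusted p = 3.21e-04), and IFITM1, which restricts virus entry, had 0 and 0.18 CPM in MM1.S, against 57.2, 78.1, 17.3 and 9.87 CPM in H929 (-5.70 ± 0.75, adjusted p = 3.23e-04). ISG15, IFI27 and IFITM1 were named by a rule that asks for no overlap, so that MM1.S lay below every H929 library is not a result. Within H929 the scramble for shRNA1 libraries were above the scramble for shRNA2 libraries for these genes. Set against the scramble for shRNA1 alone, 31 genes were lower and the median was -2.48; set against the scramble for shRNA2 alone, 26 were lower and 8 higher, with a median of -1.23.

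A few interferon-stimulated genes went the other way. HERC6, a HECT-domain ligase gene, had 13 and 9.56 CPM in MM1.S, against 0.95, 1.05, 0.585 and 0.12 CPM in H929 (3.39 ± 0.37, adjusted p = 1.14e-04). OAS3, a synthetase of the RNase L activator, had 16.8 and 24.7 CPM in MM1.S, against 6.15, 9.4, 2.75 and 1.44 CPM in H929 (2.21 ± 0.59, adjusted p = 0.0113), and EPSTI1 had 18.2 and 14.8 CPM in MM1.S, against 5.87, 10.1, 4.27 and 2.39 CPM in H929 (1.61 ± 0.44, adjusted p = 0.013). Both of these calls were lost without replicate 1 and without replicate 2 of MM1.S (adjusted p = 0.0706 and 0.122 for OAS3, and 0.127 and 0.0777 for EPSTI1, with limma).

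ZBP1, the gene the study depletes and itself induced by interferon, had 133 and 144 CPM in MM1.S, against 245, 258, 196 and 209.7 CPM in H929 in these undepleted libraries (-0.71 ± 0.14, adjusted p = 0.00312). ADAR, whose product edits double-stranded RNA and competes for the same Z-form nucleic acids, had 833 and 818 CPM in MM1.S, against 1847, 1923, 1599 and 1507 CPM in H929 (-1.05 ± 0.15, adjusted p = 5.77e-04). Both were thus expressed by the 2 lines and lower in each MM1.S library than in any H929 library. Of 26 tested nucleic acid sensing genes, 7 were higher and 13 lower, with a median of -0.34. TMEM173, which encodes the cyclic dinucleotide receptor STING, had 0.904 and 0.902 CPM in MM1.S, against 35.6, 38.7, 26.5 and 24.8 CPM in H929 (-4.48 ± 0.21, adjusted p = 1.11e-06), and the adaptor TBKBP1 had 0.754 and 0.974 CPM in MM1.S, against 27, 27.7, 11.5 and 11.8 CPM in H929 (-3.76 ± 0.40, adjusted p = 9.24e-05). The kinase gene IKBKE had 55.7 and 61.1 CPM in MM1.S, against 18.4, 14.2, 17.1 and 18.1 CPM in H929 (1.76 ± 0.15, adjusted p = 2.47e-05), and IRF5, an interferon regulatory factor, had 129 and 169 CPM in MM1.S, against 63.9, 57.1, 53.5 and 62 CPM in H929 (1.32 ± 0.14, adjusted p = 1.17e-04).

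ZBP1 signals through RIPK3, which phosphorylates the necroptosis executioner MLKL. RIPK3 was low in MM1.S, at 3.17 and 3.93 CPM, and had no read in any of the 4 H929 libraries, so that it was at least 82.6-fold higher in MM1.S, with 3 reads over the H929 libraries as the floor (3.01 ± 0.17, adjusted p = 2.58e-06). MLKL had 9.72 and 9.31 CPM in MM1.S, against 30.7, 32.1, 29.1 and 27.3 CPM in H929 (-1.59 ± 0.13, adjusted p = 2.17e-05), and RIPK1 had 38.3 and 38 CPM in MM1.S, against 18.9, 23.9, 21.2 and 21.4 CPM in H929 (0.83 ± 0.13, adjusted p = 9.77e-04). Over the 24 tested genes of necroptosis and death receptors, 8 were higher and 7 lower, with a median of -0.06. The TNF receptor gene TNFRSF1A had 78.6 and 77.3 CPM in MM1.S, against 7.99, 9.35, 9.24 and 8.61 CPM in H929 (3.08 ± 0.13, adjusted p = 6.60e-07), and FAS had 44.8 and 35.5 CPM in MM1.S, against 11.6, 10.3, 10 and 9.03 CPM in H929 (1.92 ± 0.16, adjusted p = 2.59e-05). The TRAIL decoy receptor genes TNFRSF10C and TNFRSF10D were lower, with 0.98 and 1.15 CPM in MM1.S, against 21.3, 19.6, 18.5 and 18.4 CPM in H929 for TNFRSF10C and 11.3 and 10.5 CPM in MM1.S, against 91.3, 87.1, 51.2 and 53.2 CPM in H929 for TNFRSF10D. These receptor genes were named as the largest called differences of the list in each direction. No pattern of signalling and decoy receptors is therefore read from them.

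NF-kB is a survival pathway of plasma cells that myeloma mutations often activate. Of its 26 tested subunits and regulators, 11 were higher and 5 lower in MM1.S, with a median of 0.23, and of 21 tested targets 10 were higher and 6 lower. TNFAIP3, a deubiquitinase that ends the signal, had 355 and 338 CPM in MM1.S, against 19.7, 21.6, 14.5 and 16 CPM in H929 (4.25 ± 0.17, adjusted p = 5.31e-07), and BIRC3, an inhibitor of apoptosis, had 180.2 and 136 CPM in MM1.S, against 13.5, 9.68, 5.97 and 6.34 CPM in H929 (4.14 ± 0.31, adjusted p = 1.44e-05). The targets IL2RG, the common cytokine receptor chain, and PLEK, a platelet and leukocyte kinase C substrate, were high in MM1.S, with 297 and 288 CPM in MM1.S, against 5.08, 7.52, 1.7 and 1.68 CPM in H929 for IL2RG and 65.3 and 73.7 CPM in MM1.S, against 0.894, 1.66, 0.644 and 0.778 CPM in H929 for PLEK. REL, a subunit of the pathway, was lower, with 2.07 and 2.89 CPM in MM1.S, against 31.9, 22.5, 39.1 and 37.8 CPM in H929 (-3.46 ± 0.25, adjusted p = 1.02e-05), as was BCL3, an atypical inhibitor, with 15.1 and 20.7 CPM in MM1.S, against 119.8, 126, 74 and 75.9 CPM in H929 (-2.41 ± 0.26, adjusted p = 1.05e-04). TRAF3, a brake on the alternative branch, was not called (0.15 ± 0.13). TNFAIP8 differed by -0.46 ± 0.15, and its call was lost without replicate 2 of MM1.S or either H929 scramble for shRNA2 library (adjusted p from 0.0521 to 0.203 with limma).

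Interleukin 6 is a growth factor of myeloma cells and signals through JAK kinases and STAT3. Of 28 tested genes of that pathway, 8 were higher and 15 lower in MM1.S, against 31.6% and 32.3% of all genes, with a median of -0.58. Among the receptor genes, IL6ST, the signalling chain gp130, had 463 and 378 CPM in MM1.S, against 78.6, 68.5, 95.2 and 74.8 CPM in H929 (2.40 ± 0.16, adjusted p = 6.99e-06), and IL21R had 31.7 and 39.2 CPM in MM1.S, against 4.36, 3.59, 5.21 and 3.83 CPM in H929 (2.92 ± 0.19, adjusted p = 6.41e-06). The receptor gene LIFR ran the other way (-2.22 ± 0.30, adjusted p = 3.87e-04). Downstream genes split. PIM1, a survival kinase that STAT factors induce, had 236 and 245 CPM in MM1.S, against 23.2, 20.1, 17.1 and 13.3 CPM in H929 (3.70 ± 0.21, adjusted p = 2.79e-06), whereas SOCS3, the feedback inhibitor, had 0.188 and 0.397 CPM in MM1.S, against 21.2, 32.7, 11.8 and 8.79 CPM in H929 (-4.43 ± 0.47, adjusted p = 9.65e-05) and JUNB had 17.7 and 23.1 CPM in MM1.S, against 268, 268, 167 and 172 CPM in H929 (-3.36 ± 0.24, adjusted p = 1.06e-05).

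The BCL2 family sets the threshold for mitochondrial apoptosis, and 3 of its protective members are drug targets in myeloma or lymphoma. MCL1 was lower in MM1.S, with 551 and 511 CPM in MM1.S, against 4099, 4286, 2721 and 2634 CPM in H929 (-2.66 ± 0.24, adjusted p = 4.04e-05). BCL2, the target of venetoclax, had 152 and 168 CPM in MM1.S, against 22.1, 20.8, 16.7 and 14.4 CPM in H929 (3.10 ± 0.19, adjusted p = 3.96e-06), and BCL2L1, which encodes BCL-xL, had 219 and 234 CPM in MM1.S, against 31, 28.8, 27.7 and 28.8 CPM in H929 (2.94 ± 0.11, adjusted p = 3.65e-07). The lines thus differed in opposite directions, MM1.S higher for BCL2 and BCL2L1 and H929 higher for MCL1. Members of this list were named only if the libraries of the lines did not overlap, which held for 73.7% of all genes. The lack of overlap in these 3 genes is therefore not a result. BCL2L11, which encodes the death-promoting BIM, had 226 and 200.3 CPM in MM1.S, against 94, 82, 48.1 and 52 CPM in H929 (1.68 ± 0.27, adjusted p = 0.001). Over the 15 tested members, 5 were higher and 7 lower.

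Inhibitors of G1 kinases set the lines apart. CDKN2C, which encodes p18 INK4c and is often deleted in myeloma, had no read in either MM1.S library and 123, 134, 151 and 152 CPM in H929, at least 2533-fold lower in MM1.S with 3 reads over both MM1.S libraries as the floor (-8.13 ± 0.14, adjusted p = 1.39e-08). CDKN2A had 0.754 and 0.83 CPM in MM1.S, against 59.7, 61.8, 57.2 and 56.4 CPM in H929 (-5.52 ± 0.13, adjusted p = 5.55e-08), and its neighbour CDKN2B had 0.377 and 0.83 CPM in MM1.S, against 15.8, 16.2, 10.5 and 10.3 CPM in H929 (-3.63 ± 0.27, adjusted p = 1.37e-05). CDKN1A, which encodes p21, had 103 and 143 CPM in MM1.S, against 871, 894, 404 and 381 CPM in H929 (-2.27 ± 0.39, adjusted p = 0.00127). CDKN2C and CDKN2A, of the fixed set of myeloma genes, were lower in both MM1.S libraries than in any H929 library. So were 36.9% of all genes. CDKN2B and CDKN1A were named by a rule that asks for no overlap, so the same in them is not a result. Over the 30 genes of G1 cyclins, kinases, inhibitors and the RB family, 13 were higher and 6 lower, and without replicate 1 or 2 of MM1.S 7 or 8 were higher. TFDP1, the partner of E2F factors, had 362 and 354 CPM in MM1.S, against 59.3, 55.4, 95.1 and 98 CPM in H929 (2.26 ± 0.25, adjusted p = 1.24e-04), and E2F7 had 59.8 and 56.9 CPM in MM1.S, against 6.26, 6.03, 11.2 and 11.1 CPM in H929 (2.74 ± 0.28, adjusted p = 7.51e-05).

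Genes of DNA replication and mitosis were higher in MM1.S, 37 of 48 against 0 lower, with a median of 1.55. The shares over all genes were 31.6% higher and 32.3% lower. CDK1, the mitotic kinase, had 214 and 161 CPM in MM1.S, against 11.4, 13.1, 32.3 and 30.7 CPM in H929 (3.21 ± 0.43, adjusted p = 3.64e-04), and CENPF, a kinetochore protein, had 457 and 375 CPM in MM1.S, against 40.1, 41.4, 108 and 110.4 CPM in H929 (2.62 ± 0.45, adjusted p = 0.00127). MKI67, the proliferation marker Ki-67, had 850.4 and 795 CPM in MM1.S, against 98.2, 88.1, 270.5 and 274 CPM in H929 (2.37 ± 0.49, adjusted p = 0.00327), a call lost without replicate 1 of MM1.S (adjusted p = 0.0531 with limma). Here the 2 H929 groups were far from each other, the scramble for shRNA1 libraries lying lowest and the scramble for shRNA2 libraries between them and MM1.S. Against the scramble for shRNA1 alone, 47 genes were higher with a median of 2.14, and against the scramble for shRNA2 alone 40 were higher and 2 lower with a median of 0.89. The count was 7 without replicate 1 of MM1.S and 13 without replicate 2, with medians of 1.52 and 1.60.

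The MYC family drives growth and is often rearranged in myeloma. MYC was not called, with 561 and 670.3 CPM in MM1.S, against 638, 529.5, 657 and 775 CPM in H929 (-0.07 ± 0.17, adjusted p = 0.736), and of 12 genes of its network 4 were higher and 3 lower. The counts were 3 higher and 1 lower without replicate 1 of MM1.S, and 2 higher and 4 lower without replicate 2. Of these genes, MYCL lost its call without replicate 2 of MM1.S (adjusted p = 0.0728 with limma), and MGA, MXD4 and MLXIP lost theirs without replicate 1 (adjusted p = 0.193, 0.0647 and 0.0893). MGA also lost its call without replicate 2 of MM1.S (adjusted p = 0.0615 with limma) and without replicate 1 of the H929 scramble for shRNA1 (adjusted p = 0.0561).

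**Figure D3:**
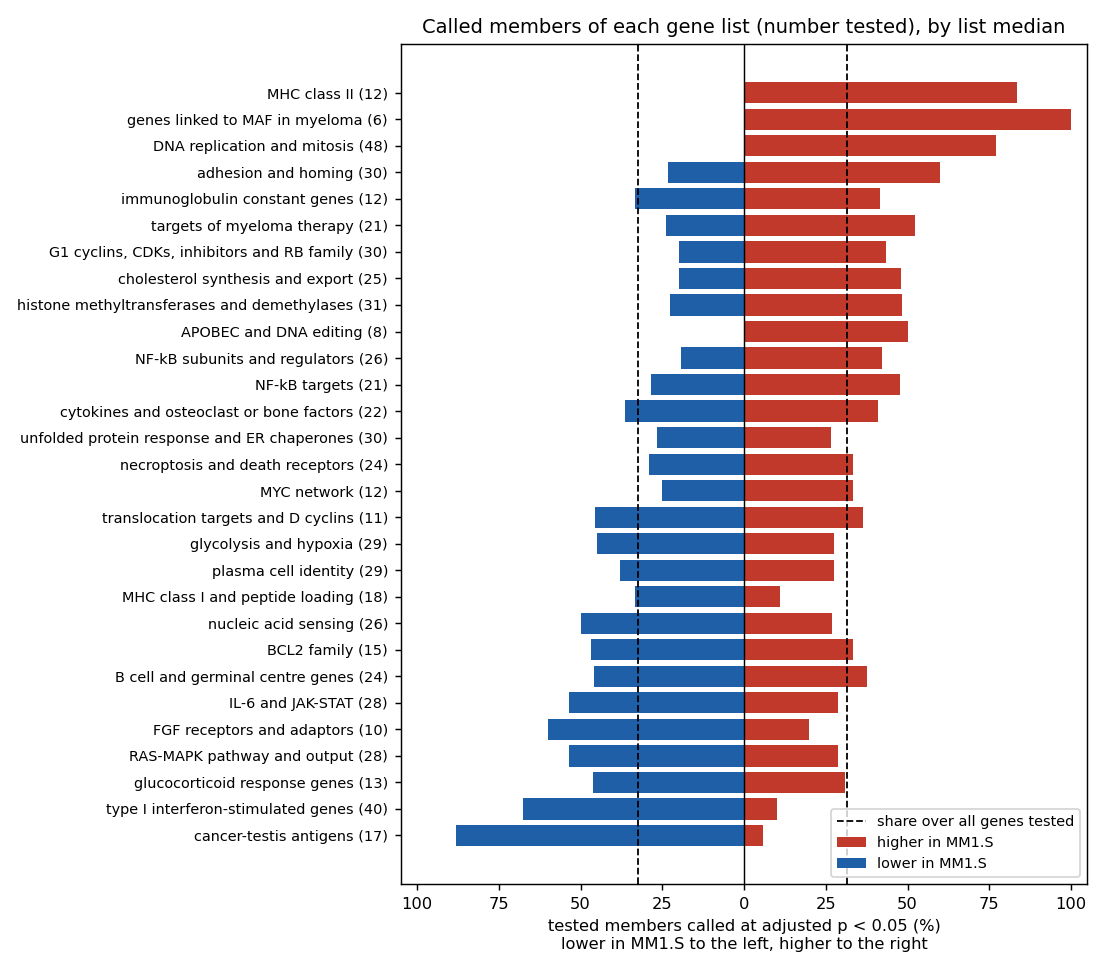
Share of tested members of each gene list described that were lower (left) or higher (right) in MM1.S at adjusted p under 0.05, with lists in order of their median difference and the number tested in brackets; dashed lines mark the shares over all genes, 32.3% and 31.6%. MHC class II, MAF-linked and DNA replication genes extend to the right with 0 lower members, and type I interferon-stimulated genes extend to the left. Cancer-testis antigens also lie to the left, but members near 0 in MM1.S passed the filter only through the H929 libraries. Nothing is read from that share.

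Adhesion molecules and chemokine receptors decide where myeloma cells lodge. Of 30 tested, 18 were higher and 7 lower in MM1.S, against 31.6% and 32.3% of all genes, with a median of 0.92. CXCR4, the receptor that holds plasma cells in the marrow, had 87.5 and 83.9 CPM in MM1.S, against 2.18, 1.6, 3.16 and 2.93 CPM in H929 (4.89 ± 0.24, adjusted p = 1.32e-06). CCR2, a chemokine receptor of monocytes, had 40.5 and 35.6 CPM in MM1.S, against 0.168, 0.111, 0.117 and 0.0598 CPM in H929 (5.97 ± 0.18, adjusted p = 1.42e-07). CD9, a tetraspanin, had 169 and 162 CPM in MM1.S, against 0.224, 0.774, 0.41 and 0.0598 CPM in H929 (7.64 ± 0.31, adjusted p = 5.20e-07). CCR2 and CD9 stayed under 1 CPM in every H929 library, and CXCR4 did not. The lower genes included NCAM1, the marker CD56 that many myelomas gain, with 7.57 and 10.5 CPM in MM1.S, against 168, 151, 161 and 147 CPM in H929 (-4.06 ± 0.15, adjusted p = 3.24e-07), and ITGB2, the shared chain of the leukocyte integrins, with 0.339 and 1.66 CPM in MM1.S, against 10.1, 12.6, 16.1 and 13.6 CPM in H929 (-3.32 ± 0.36, adjusted p = 1.11e-04). ICAM1, their ligand, had 28 and 37.9 CPM in MM1.S, against 183, 232, 153 and 146 CPM in H929 (-2.41 ± 0.21, adjusted p = 3.25e-05).

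Among 21 targets of myeloma therapy, 11 were higher and 5 lower in MM1.S, against 31.6% and 32.3% of all genes. TNFRSF17, which encodes BCMA, had 262 and 241 CPM in MM1.S, against 469, 484, 543 and 547 CPM in H929 (-1.02 ± 0.13, adjusted p = 2.17e-04), and CD38, the daratumumab target, had 90.5 and 65.8 CPM in MM1.S, against 243, 287, 215 and 179 CPM in H929 (-1.55 ± 0.21, adjusted p = 3.46e-04). GPRC5D, a target of bispecific antibodies, had 65.2 and 65.7 CPM in MM1.S, against 37.2, 41.6, 41 and 40.3 CPM in H929 (0.70 ± 0.11, adjusted p = 8.30e-04). Antigens were thus not shifted in 1 direction. SLAMF7, the elotuzumab target, was not called (0.67 ± 0.28, adjusted p = 0.0686), although without replicate 2 of the H929 scramble for shRNA1 it was (adjusted p = 0.0159 with limma). For the cereblon drugs, CRBN was not called (adjusted p = 0.0721 with limma, and 0.0483 without replicate 2 of MM1.S), IKZF3 was not called (0.10 ± 0.11), and IKZF1 had 148 and 141 CPM in MM1.S, against 89.8, 99.3, 104 and 102 CPM in H929 (0.55 ± 0.11, adjusted p = 0.00337).

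NR3C1, the glucocorticoid receptor through which dexamethasone acts, had 185 and 159 CPM in MM1.S, against 88.3, 94.4, 81.3 and 77.7 CPM in H929 (1.01 ± 0.13, adjusted p = 2.68e-04). Of 13 tested genes known to respond to glucocorticoids, 4 were higher and 6 lower, with a median of -0.75. SGK1, a kinase gene, had 93 and 93.7 CPM in MM1.S, against 10.4, 13.6, 9.95 and 8.73 CPM in H929 (3.09 ± 0.18, adjusted p = 3.32e-06), and DDIT4, an mTOR inhibitor that starvation and hypoxia also raise, had 6.03 and 18.1 CPM in MM1.S, against 222, 286, 242 and 227 CPM in H929 (-4.46 ± 0.35, adjusted p = 1.87e-05). FKBP5, a receptor cochaperone, differed by 1.34 ± 0.31, and its call was lost without replicate 1 and without replicate 2 of MM1.S (adjusted p = 0.075 and 0.0509 with limma). Among 22 tested cytokines and bone factors, 9 were higher and 8 lower. IGF1, a myeloma growth factor, had 16.2 and 15.6 CPM in MM1.S, against 1.62, 1.16, 1.23 and 0.957 CPM in H929 (3.25 ± 0.20, adjusted p = 4.71e-06), and TGFB1 had 26.2 and 40.2 CPM in MM1.S, against 375, 436, 401 and 440.0 CPM in H929 (-3.64 ± 0.18, adjusted p = 1.21e-06). IGF2BP3, an oncofetal RNA-binding protein, had 0.339 and 0.253 CPM in MM1.S, against 18.3, 18.9, 20.6 and 17.6 CPM in H929 (-4.60 ± 0.16, adjusted p = 2.51e-07).

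Of 29 glycolysis and hypoxia genes, 8 were higher and 13 lower in MM1.S, with isozymes of 1 step differing in opposite directions. PFKP, the platelet-type phosphofructokinase, was near absent, with 0.415 and 0.325 CPM in MM1.S, against 336, 382, 385 and 407 CPM in H929 (-8.76 ± 0.13, adjusted p = 6.28e-09). PFKL, the liver type, had 425 and 574 CPM in MM1.S, against 232, 268, 206 and 238 CPM in H929 (1.07 ± 0.16, adjusted p = 6.82e-04). ENO2 had 314 and 317 CPM in MM1.S, against 78, 92.6, 63.4 and 74.3 CPM in H929 (2.04 ± 0.16, adjusted p = 1.51e-05), and BNIP3, a mitophagy receptor, had 2.86 and 3.65 CPM in MM1.S, against 37.2, 50, 44.9 and 49.8 CPM in H929 (-3.61 ± 0.17, adjusted p = 1.15e-06). ADM, the vasodilator adrenomedullin, had 163 and 153 CPM in MM1.S, against 0.391, 0.387, 0.293 and 0.239 CPM in H929 (7.58 ± 0.17, adjusted p = 5.09e-08).

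Of 25 tested genes of cholesterol synthesis and export, 12 were higher in MM1.S and 5 lower, with a median of 0.50. Without replicate 1 of MM1.S, 3 were lower. IDI1, LSS and INSIG1, which belong to or restrain that pathway, differed by 2.10 ± 0.15, 1.87 ± 0.16 and 1.91 ± 0.19. ABCA1 and ABCG1, the sterol exporters, were among the 5 lower genes: ABCA1 had 2.19 and 1.55 CPM in MM1.S, against 29.5, 32.7, 23.1 and 16 CPM in H929 (-3.41 ± 0.29, adjusted p = 2.56e-05), and ABCG1 had 0.641 and 0.938 CPM in MM1.S, against 20.6, 28.8, 12.9 and 12.1 CPM in H929 (-3.81 ± 0.34, adjusted p = 3.99e-05). SREBF1 differed by -1.02 ± 0.24, with its call lost without replicate 1 of MM1.S (adjusted p = 0.103 with limma).

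Unfolded protein response and chaperone genes, which plasma cells need for secretion, were split evenly, with 8 higher and 8 lower of 30 and a median of -0.03; without replicate 1 of MM1.S the counts were 4 and 5. HSP90B1, the chaperone of integrins and Toll-like receptors, had 3106 and 2517 CPM in MM1.S, against 1049, 1022, 1273 and 1176 CPM in H929 (1.31 ± 0.17, adjusted p = 2.47e-04), and SDF2L1 had 38.2 and 57.2 CPM in MM1.S, against 111, 108, 129 and 140.4 CPM in H929 (-1.37 ± 0.19, adjusted p = 3.72e-04). APOBEC3 deaminases are of interest because MAF myelomas carry their mutation signature. In this pair of lines, 4 of 8 tested APOBEC and editing genes were higher in MM1.S and 0 lower, none by 2-fold. Without replicate 1 of MM1.S 2 were higher, and without replicate 2, 1. Without replicate 2 of the H929 scramble for shRNA2, 1 was lower. APOBEC3B had 75.1 and 93.3 CPM in MM1.S, against 40.2, 47.3, 60.3 and 54.7 CPM in H929 (0.74 ± 0.18, adjusted p = 0.0079), and its call was lost without replicate 2 of MM1.S (adjusted p = 0.0904 with limma), as was that of APOBEC3F without either replicate (adjusted p = 0.06 and 0.106).

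**Figure D4:**
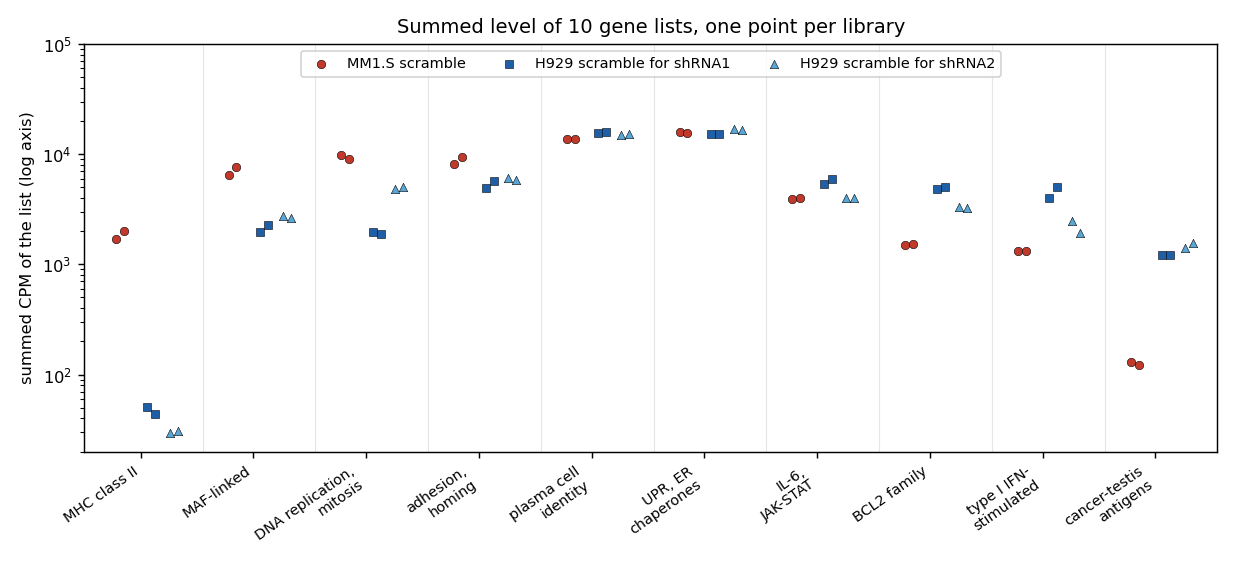
Summed CPM (log axis) of all members of 10 gene lists in each scramble library, with MM1.S libraries left of H929 libraries. MHC class II genes sum to 1700.3 and 1989.8 CPM in MM1.S, against 29.7 to 50.6 CPM in H929.

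Cancer-testis antigens are normally confined to germ cells and are often switched on in myeloma. Of 26 members, 17 passed the filter on low values and 9 were not tested. Of the 17, 15 were lower in MM1.S and 1 was higher, against 32.3% and 31.6% of all genes. Members near 0 in MM1.S passed the filter only through the H929 libraries, so this count is a description of the list and nothing is read from it. MAGEA4 had 0 and 0.0361 CPM in MM1.S, against 239, 245, 281 and 309.9 CPM in H929 (-9.01 ± 0.15, adjusted p = 9.46e-09), MAGEC1 had 0.0754 and 0.0361 CPM in MM1.S, against 96.7, 86.2, 146 and 162 CPM in H929 (-7.74 ± 0.26, adjusted p = 2.35e-07), and MAGEA3 had 0.113 and 0.217 CPM in MM1.S, against 138, 141, 162 and 185 CPM in H929 (-7.88 ± 0.16, adjusted p = 3.37e-08). The family was not wholly silent in MM1.S: MAGEA1 had 98.4 and 93.5 CPM in MM1.S, against 90.5, 89.5, 111 and 129 CPM in H929 and was not called (-0.11 ± 0.17). TEX14, a germ cell bridge protein gene, was the member that was higher, with 6.97 and 5.77 CPM in MM1.S, against 0.391, 0.774, 0.995 and 0.179 CPM in H929 (2.72 ± 0.32, adjusted p = 1.75e-04). MAGEA3 has a near-identical copy, MAGEA6, and the split of reads between them is uncertain.

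The widest differences concerned genes that 1 line expressed and the other nearly did not. At 5 CPM or more on average in 1 line and under 0.5 CPM in every library of the other, 125 protein-coding genes were on in MM1.S and 282 in H929. A gene off in MM1.S had to be low in 2 libraries, and a gene off in H929 in 4. The 2 counts are therefore not on equal terms. Of the 12 called protein-coding genes with the largest differences and no overlap, LAPTM5, a lysosomal membrane protein of blood cells, led, with 1587 and 1525 CPM in MM1.S, against 0.503, 0.83, 0.293 and 0.12 CPM in H929 (10.76 ± 0.28, adjusted p = 8.52e-08). QPCT, glutaminyl cyclase, had 316 and 270.4 CPM in MM1.S, against 0.279, 0.166, 0.176 and 0.179 CPM in H929 (8.71 ± 0.17, adjusted p = 2.66e-08), and SYK, the kinase next to the B cell receptor, had 114 and 108 CPM in MM1.S, against 0.168, 0.0553, 0 and 0.0598 CPM in H929 (7.62 ± 0.19, adjusted p = 6.25e-08). PCP4, a calmodulin regulator, had 128 and 118 CPM in MM1.S and no read in H929, at least 2858-fold higher. The others were CD74, CCND2, ST14, TNFRSF13B, CD9, ADM, NLRP7 and SCNN1G.

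At the other end, NES, the intermediate filament nestin, had 1.02 and 1.01 CPM in MM1.S, against 3423, 3483, 3469 and 4055 CPM in H929 (-11.21 ± 0.12, adjusted p = 1.21e-09). ADAM19, a metalloprotease of the cell surface, had 0.83 CPM in both MM1.S libraries, against 626, 737, 689 and 702 CPM in H929 (-9.01 ± 0.11, adjusted p = 2.67e-09), and IL32, a cytokine linked to osteoclasts in myeloma, had 0.603 and 0.938 CPM in MM1.S, against 462, 680.2, 503 and 578 CPM in H929 (-8.77 ± 0.18, adjusted p = 3.49e-08). SLC2A5, the fructose transporter, had 4.9 and 6.46 CPM in MM1.S, against 1731, 2334, 1395 and 1406 CPM in H929 (-8.10 ± 0.23, adjusted p = 1.09e-07), and FCRL2, an Fc receptor-like relative of FCRL5, had 0.641 and 0.974 CPM in MM1.S, against 391.7, 554, 347 and 372 CPM in H929 (-8.30 ± 0.21, adjusted p = 6.25e-08). All 5 were at 347 CPM or more in every H929 library. The rest of the 12 were FGFR3, MAGEA4, PFKP, EEF1A2, MLC1, NAPSA and CDKN2C.

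Genes that were off in 1 line sometimes lay side by side. Leaving out genes unexpressed in both lines, the longest run in MM1.S was 5 neighbours on 19p13.3, from ZNF556 to TLE2, with TLE2 at 0 CPM in both MM1.S libraries and 47.7, 54.9, 30.9 and 37.2 CPM in H929. Runs of 4 were CA11, NTN5, FUT2 and MAMSTR on 19q13.33, the 4p16.3 cluster of IDUA described above, and PPP4R3C, DCAF8L2, MAGEB2 and MAGEB1 on the X chromosome, all 4 at 0 in MM1.S. In all, MM1.S had 1 run of 5, 3 runs of 4 and 8 runs of 3 silent neighbours. H929 had no longer run than 3, with 2 of that length. Silence was asked of 2 libraries in MM1.S and of 4 in H929, so the runs of the lines are not on equal terms. No DNA data were used, so whether a run reflects lost DNA or silenced genes was not tested.

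By chromosome arm, the protein-coding genes of 14q had the lowest median, -0.61, with 32 of 447 tested genes higher and 271 lower in MM1.S. Next were 20q (-0.45), 19p (-0.42) and 1q (-0.32). The highest medians were those of 20p (0.93), 12p (0.88), 21q (0.83), 13q (0.62) and 4q (0.58), against a median of 0.06 over all protein-coding genes. On 20p, 71.3% of the genes were higher and 12.2% lower. Of the 41 arms compared, the 2 arms of chromosome 20 thus had the highest and the next to lowest median. Arm medians describe expression and were not set against copy number.

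**Figure D5:**
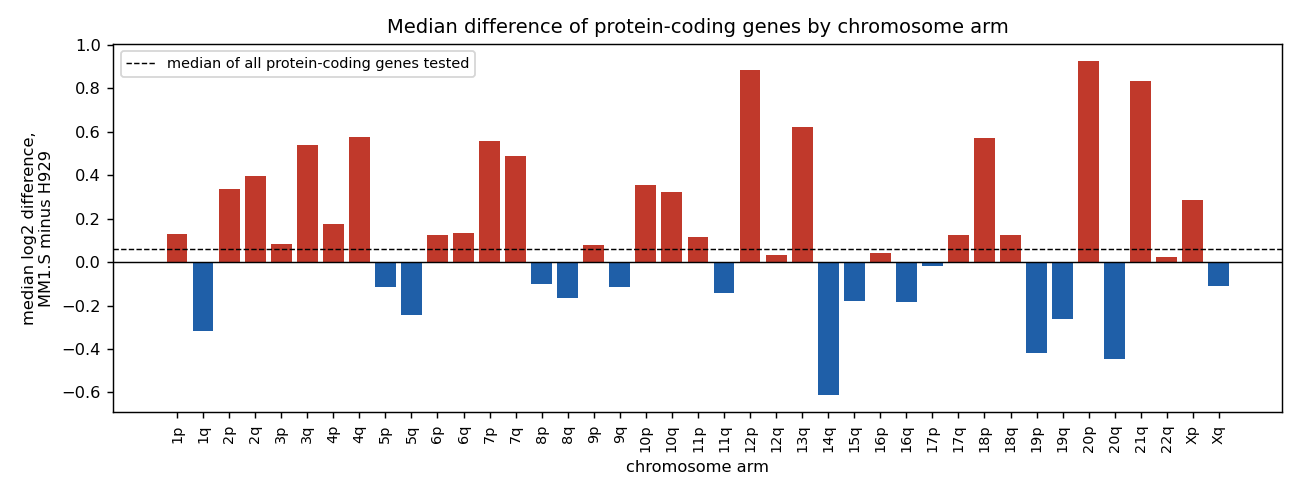
Median log2 difference, MM1.S minus H929, of the tested protein-coding genes of each of 41 chromosome arms with at least 20 of them, with red bars above 0 and blue bars below; the dashed line is the median over all protein-coding genes, 0.06. Bars for 20p, 12p and 21q are the tallest, and 14q, 20q and 19p reach lowest.

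The hairpin libraries of the 2 lines, which share no library with the scramble comparison, were set against each other in the same way. Of the 5888 genes higher in MM1.S, 77.8% were called in the same direction between the shRNA1 libraries and 79.9% between the shRNA2 libraries. Of the 6008 lower genes these shares were 81.6% and 87.2%. For genes that differed by 2-fold or more the 4 shares lay between 87.8% and 94.5%. Of the 5888 higher genes, 2.36% and 1.80% were called in the opposite direction, and of the 6008 lower genes 1.71% and 0.93%. Among all 18612 genes tested, 6043 were higher and 6535 lower between the shRNA1 libraries, and 6179 and 6940 between the shRNA2 libraries. The MAF-linked genes had medians of the same sign (3.20 and 2.21). Among interferon-stimulated genes, with shRNA1 12 were higher and 19 lower, with a median of -0.21, and with shRNA2 14 were higher and 20 lower, with a median of -0.24. DNA replication and mitosis genes had a median of 1.89 with shRNA1 and 0.27 with shRNA2, and MHC class II genes 1.33 and 2.19. Genes of cholesterol synthesis and export had medians of -0.25 and -0.35, opposite in sign to that of the scramble libraries. The difference between the scramble and the hairpin contrasts was not tested.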

How the data were processed

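RNA of 2 human myeloma lines was sequenced after poly(A) selection with NEBNext kits, per the labels' protocols. The authors aligned reads with STAR 2.5.3a to GRCh38 and used DESeq2 1.24.0, per the submitters' processing notes; the counting tool, annotation and strand setting are not given in the sources used here. The deposited MM1.S table holds raw counts per Ensembl gene. The deposited H929 table holds a signal that the values show to be counts divided by 1 size factor per library; whole reads were recovered for 100% of values, within 0.01 of a whole number. Replicate 2 of the H929 scramble for shRNA1, and the shRNA2 libraries of both lines, were matched to their columns by elimination.

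Reads of the 58051 genes in both tables were normalised together (TMM, edgeR 4.0.16, R 4.3.3), and genes at 0.5 CPM or more in at least 2 of the 6 libraries were tested on log2(CPM + 0.5) with limma 3.58.1 (trend, Benjamini-Hochberg adjustment, 4 residual degrees of freedom). Depth was 16884537 to 28419331 reads in genes, and the number of libraries limits the precision. Gene positions and types are those of GENCODE 29. The test was tried on simulated data. The members and lists were chosen with earlier results of these data known. Named genes were a fixed set of myeloma genes, the 12 largest called differences each way, up to 3 called members of each list each way, protein-coding genes within 1 Mb of MAF and NSD2, and the 5 longest runs of silent neighbours; of these, the text gives a selection. CIITA, CXCR4, HLA-B, HLA-DMA, HLA-DQA1, HLA-DQB1, HLA-DRB1, IL6ST, LIFR, MAGEA1, PAX5 and PFKL fall outside that rule and were chosen after their values were seen. Alternatives changed the scaling, pseudocount, filter, test, libraries fitted and replicates, with edgeR's quasi-likelihood test and DESeq2 1.42.0 among them. Some named genes are not reported here. The authors' tables of hairpin comparisons were not used.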

Additional observations from a re-analysis of the deposited data

Results flagged for a closer look

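Of 223 named genes examined, 5 had 1 H929 scramble library far from the other 3, and chance flags about 1 in 20 such groups. NES was at 4055 CPM in replicate 2 of the scramble for shRNA2, against 3423 to 3483 CPM in the other H929 libraries. DNAJC3, an ER chaperone partner, was at 88.8 CPM in replicate 1 of the scramble for shRNA2, against 67.6 to 70.1 CPM. CD74 was at 3.97 CPM in replicate 1 of the scramble for shRNA1, against 1.68 to 1.99 CPM. In replicate 2 of that group IGLC3 was at 1.38 CPM, against 0.299 to 0.468 CPM, and CR2 was at 0.553 CPM, against 1.23 to 1.32 CPM. For NES, CD74 and CR2 the gap within H929 was small beside the difference between the lines.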

How the results depend on the processing

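The counts of genes higher and lower in MM1.S stayed within 1.5 times the reported ones under the 19 alternatives run. Leaving out 1 library gave 4341 to 5894 higher and 4355 to 5892 lower genes, lowest without replicate 1 of MM1.S. The difference of replicate 1 from replicate 2 was correlated across genes at 0.373 between MM1.S and the H929 scramble for shRNA2. Between the H929 scramble for shRNA1 and these groups the correlations were -0.0448 (MM1.S) and -0.108 (scramble for shRNA2). Replicate numbers thus shared a pattern in 1 pair of groups only. With the replicate number as a block 5599 genes were higher and 5737 lower. Of 41 chromosome arms, 24 to 27 had a median above 0, against 26 as reported. Of 240 named genes, 20 lost their call without replicate 1 of MM1.S and 17 without replicate 2.

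Some named genes changed sign in the hairpin libraries. Between the shRNA1 libraries of both lines, the difference was -1.04 for PRDM1, -1.59 for GPRC5D, 0.77 for MYC, -0.088 for MYCL, 0.33 for BTK, 0.66 for TRAF1, -0.064 for FKBP5, 0.014 for P4HB, -0.20 for MXD3 and -1.04 for PECAM1. Between the shRNA2 libraries it was -0.30 for SDC1, -1.55 for GPRC5D, -0.91 for MYCL, -0.37 for MXD3, -0.56 for APOBEC3B, -1.51 for PECAM1, 0.72 for FAM53A and -0.049 for TACC3. These libraries are other samples, and the cause was not tested. MHC class I genes lower in MM1.S numbered 10 with 3 groups, with all 14 libraries in the fit and against the scramble for shRNA1 alone. With 2 MM1.S libraries, genes of low level are limited by depth, and the line cannot be told apart from its table.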

Other observations

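Of 989 tested lincRNA genes, 197 were higher in MM1.S and 453 lower, which is 19.9% and 45.8%, with a median difference of -0.53. Protein-coding genes had 4785 higher and 4426 lower of 13856, or 34.5% and 31.9%, with a median of 0.06. Among 868 processed pseudogenes, copies of spliced mRNAs, 99 were higher and 243 lower, with a median of -0.26. Of 1249 antisense genes 298 were higher and 414 lower, and their reads cannot be told apart from those of the opposite strand without a stated strand setting. Of 183 sense intronic genes 59 were higher and 39 lower, or 32.2% and 21.3%, with a median of 0.21. Of 58 sense overlapping genes 20 were higher and 12 lower, or 34.5% and 20.7%, with a median of 0.23. The differences between these classes were not tested. A gene passed the filter through any 2 of the 6 libraries, and 4 of these are H929 libraries. Classes of low level may therefore hold more genes that passed through H929 alone, and nothing is read from these shares.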
